A study of Mus musculus with 54 samples.

Results

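Gli3, Inhba and Sugct lie next to each other on mouse chromosome 13, within 2.23 Mb (mm10, chr13:15463723-17694795). They were described through the windows of an allele-specific replication timing table that overlap their gene bodies: 24 of the 46268 windows of 50 kb in the table, of which 43941 are autosomal. Gli3 (gene ID 14634, chr13:15463723-15730026, + strand) covers 6 windows, Inhba (gene ID 16323, chr13:16004256-16031609, + strand) lies in 1 window, and Sugct (gene ID 192136, chr13:16857472-17694795, - strand) covers 17. The table holds 44 of the 45 windows between the first and the last base of the 3 genes. Gli3 and Inhba are 274 kb apart, and Inhba and Sugct 826 kb.

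Replication timing describes when in S phase a stretch of the genome is copied. Large domains switch between early and late copying as cells differentiate, and early copying usually goes with open chromatin. Gli3 encodes a zinc finger transcription factor of the Hedgehog pathway that is processed to a repressor when no Hedgehog ligand is present and that patterns limbs and the brain. Inhba encodes the beta A subunit of activin A, a ligand of the TGF-beta family that fibroblasts secrete, and of its antagonist inhibin A. Sugct encodes a mitochondrial CoA transferase that acts on glutarate, a product of lysine breakdown.

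The assay was Repli-Seq: DNA made during a short BrdU pulse is recovered from cells sorted by DNA content into an early and a late part of S phase, and sequenced. The 54 libraries form 27 profiles, each with 1 column per parental allele. A higher value (log of early over late, with base 2 assumed throughout) means earlier copying. Feeder-free 2i medium was used for embryonic stem cell (ESC) profiles of the 129 / cas lines F121 (1 profile, female), F121-6 (2, female), F121-9 (2, female) and F123 (2, male), the cas / 129 line Cas129 (2, female) and the C57B6 / 129 line V6.5 (1, male), and F121-6 and F121-9 also had 2 profiles each on inactivated feeder fibroblasts. Neural precursor cells (NPCs) had been derived from F121-9 (1 profile) and Cas129 (2) and taken at day 11. Mouse embryonic fibroblasts (MEFs) came from 4 cas / 129 embryos (2 profiles each), with embryos 1 and 2 labelled female and embryos 3 and 4 male. The extraembryonic endoderm (XEN) cells were of a C57B6 / cas line (2 profiles, female). All MEFs were of 1 cross direction, so that strain and parent of origin cannot be told apart in them. The labels do not say whether the 3 F121 lines or the 2 profiles of a line are independent cultures, so that the spread may be partly technical.

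The genes were chosen by their timing values in these profiles, most likely by the difference between cell types, so these differences are given as a description with no test. The differences between alleles and between culture conditions were tested. They come from the same profiles, and whether they had a part in the choice is not known. Their p-values may therefore not be independent of it. The columns of ESCs and NPCs had genome-wide means between -0.635 and -0.632 (34 columns) and those of MEFs and XEN cells means between -0.221 and -0.185 (20 columns), so timing values of the 2 sets are on scales that may differ. Percentiles among all autosomal windows do not depend on such a shift. The X chromosome went against the labelled sex in 2 embryos and in V6.5 ESCs. The 129 copy was flat, with a standard deviation 0.112 of the autosomal one, in embryo 1, as in the male-labelled embryo 4 (0.0925), while embryo 3, labelled male, had 0.549, like the female-labelled embryo 2 (0.547). MEF results are therefore also given without embryos 1 and 3. V6.5 ESCs, labelled male, had 0.938 on the 129 and 0.935 on the C57B6 copy. The male-labelled F123 ESCs had 0.071 and 0.074 on the Cas copy. Whether the label or the separation of the alleles in V6.5 is at fault was not tested. Expression was not measured, and the labels were looked at only through the timing of marker genes. A marker was earliest in its own cell type, of the 4, for 3 of 4 ESC genes (not Dppa3), 3 of 4 NPC genes (not Nes), 3 of 5 fibroblast genes (not Fap or Thy1) and 2 of 3 measured XEN genes (not Cubn), across the scales named above. Zfp42, an ESC gene, was at 1.88 in ESCs against -3.70 in NPCs, while Fap, a fibroblast gene, was at -0.72 in MEFs against 0.15 in XEN cells.

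The 3 promoters are shown because the timing of the windows that hold them differed among the genes. Each is given 5′ to 3′ on the strand of its gene, from 250 bases before to 50 after the start site, as in RefSeq for GRCm38.p6, with every CpG dinucleotide in capitals. The Inhba start site used (chr13:16011851) lies inside the gene body given above, which begins at 16004256. The sites of Gli3 and Sugct lie at or near the 5′ ends of theirs.
Gli3 promoter (chr13:15463473-15463772, + strand): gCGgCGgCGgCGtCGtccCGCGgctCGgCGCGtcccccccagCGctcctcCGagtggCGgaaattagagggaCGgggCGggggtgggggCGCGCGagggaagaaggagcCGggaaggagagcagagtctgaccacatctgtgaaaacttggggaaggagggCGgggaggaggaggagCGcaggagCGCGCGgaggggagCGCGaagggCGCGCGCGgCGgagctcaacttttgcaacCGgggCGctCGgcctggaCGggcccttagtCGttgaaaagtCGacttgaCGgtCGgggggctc
Inhba promoter (chr13:16011601-16011900, + strand): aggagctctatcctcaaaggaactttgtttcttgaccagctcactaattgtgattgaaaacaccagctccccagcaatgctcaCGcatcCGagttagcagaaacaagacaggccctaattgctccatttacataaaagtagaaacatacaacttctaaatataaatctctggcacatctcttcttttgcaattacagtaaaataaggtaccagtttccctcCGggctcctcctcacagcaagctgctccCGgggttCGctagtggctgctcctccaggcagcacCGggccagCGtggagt
Sugct promoter (chr13:17694716-17695015, - strand): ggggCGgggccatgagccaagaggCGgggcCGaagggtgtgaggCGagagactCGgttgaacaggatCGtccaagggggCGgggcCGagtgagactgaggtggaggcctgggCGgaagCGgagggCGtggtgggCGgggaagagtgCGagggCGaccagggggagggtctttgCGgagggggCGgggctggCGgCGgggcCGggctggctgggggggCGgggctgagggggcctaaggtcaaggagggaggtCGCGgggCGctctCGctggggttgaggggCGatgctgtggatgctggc

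The Gli3 promoter held 39 CpGs, a count that 4.45% of 32817 RefSeq promoters of this length reached, and the Sugct promoter held 25 (18.4%). Inhba had 7, the median of all promoters, a GC content of 47.7% against 71.0% in Gli3 and 73.7% in Sugct, and 1 TATAAA, which 13.6% of promoters hold on either strand. Neither the Gli binding motif GACCACCCA (in 0.253% of promoters) nor the AP-1 motif TGANTCA (7.81%) was found on either strand of the 3 promoters, where N is any base and each motif was counted on its own. The letters describe these 300 bases only.

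Gli3 was late in ESCs and, by percentile, a little earlier than the middle of the genome in both NPCs and MEFs. Its mean over 6 windows was -2.31 in F121, -2.55 in F121-6, -2.61 in F121-9, -2.07 in F123 and -3.21 in Cas129 ESCs (mean -2.55 ± 0.43, SD, n = 5 lines). It was 0.22 in F121-9 NPCs and -0.35 in Cas129 NPCs (mean -0.07 ± 0.40, n = 2). It was 0.74, 0.78, 0.76 and 0.71 in MEFs of embryos 1 to 4 (mean 0.75 ± 0.03, n = 4). Every NPC line lay above every one of these ESC lines, and both lay below the MEFs, though NPCs and MEFs stand on scales that may differ. In percentiles of autosomal windows Gli3 stood at 29.4 in ESCs, 56.7 in NPCs and 59.0 in MEFs, so that NPCs and MEFs were close on this measure. XEN cells were latest, at -3.66 and the 6.58 percentile. V6.5 ESCs, with 1 profile, were at -0.81 and the 48.0 percentile.

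Gli3 did not change as 1 block along its length. In NPCs the window of its promoter was at 0.54 ± 0.19 and that of its 3′ end at -0.05 ± 0.35. In MEFs the order was the opposite, with 0.46 ± 0.14 at the promoter and 1.58 ± 0.18 at the 3′ end. NPCs had a peak of early copying in the window before that of the Gli3 promoter (chr13:15400001-15450000, mean 0.82), and MEFs had theirs beyond the 3′ end (chr13:15800001-15850000, mean 2.03).

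Inhba, 1 window, was late in ESCs and NPCs and early in MEFs. It was at -3.26 in F121, -2.55 in F121-6, -3.02 in F121-9, -3.03 in F123 and -3.61 in Cas129 ESCs (mean -3.09 ± 0.39). NPCs had -1.96 (F121-9) and -2.82 (Cas129), a mean of -2.39 ± 0.60, of which the latter lay within the ESC range. The 4 MEF embryos had 1.32, 1.31, 1.47 and 1.65 (mean 1.44 ± 0.16), all above every other cell type. Its percentile was 22.2 in ESCs, 30.3 in NPCs, 67.6 in MEFs and 7.26 in XEN cells (-3.58). In V6.5 ESCs it was at -1.76 and the 37.2 percentile.

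In ESCs, NPCs and XEN cells Sugct had its 2 ends in different timing. Over its 17 windows ESC lines lay between -2.54 and -2.17 (mean -2.34 ± 0.13), the NPCs at -2.36 and -2.93, and the MEF embryos between 0.52 and 0.81 (mean 0.67 ± 0.12), with no overlap between MEFs and the rest. XEN cells were at -2.14 and V6.5 at -1.51. Its percentile was 30.3 in ESCs, 26.5 in NPCs, 58.1 in MEFs, 25.3 in XEN cells and 39.4 in V6.5. The window of its promoter, at the right edge, was already mid to early in ESCs (0.21 ± 0.48), XEN cells (0.95) and V6.5 (0.85), and stood at -0.68 ± 0.36 in NPCs and 0.96 ± 0.08 in MEFs. Its 3′ end was at -2.79 ± 0.23 in ESCs, -2.96 ± 0.05 in NPCs, -3.37 in XEN cells, -0.05 in V6.5 and 1.30 ± 0.22 in MEFs. The window of the promoter is shared with Mplkip, a gene that starts 618 bases beyond Sugct, and the next gene, the kinase gene Cdk13, was at 0.65 in ESCs, 0.41 in NPCs, 0.95 in MEFs and 1.63 in XEN cells.

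**Figure D1:**
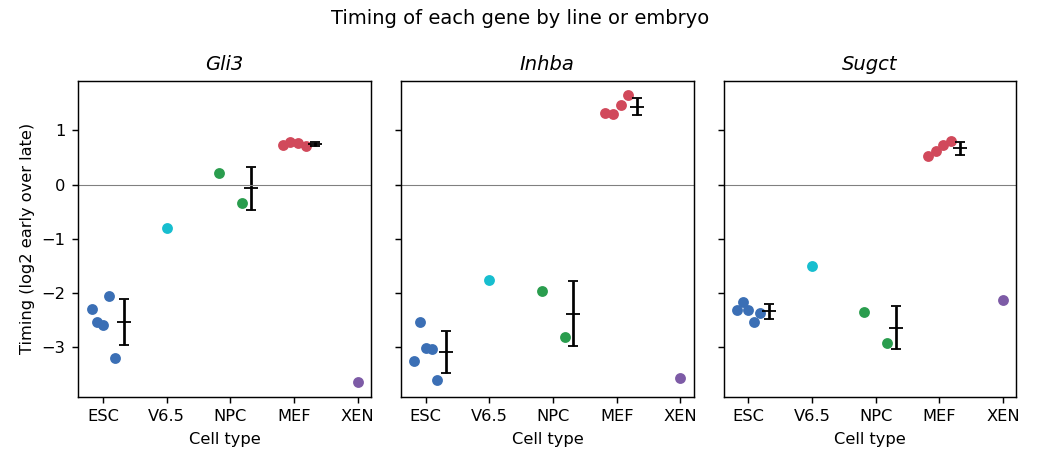
Mean timing over each gene's windows (y axis, log2 of early over late) by cell type (x axis), with 1 point per line or embryo and, beside groups of 2 or more, the mean ± SD as a bar. MEFs lie above 0 for each gene, and NPCs lie near 0 for Gli3 (mean -0.07) but at -2.39 and -2.65 for Inhba and Sugct.

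Repeats of a profile in 1 line and medium differed by a median of 0.09 for Gli3, 0.12 for Inhba and 0.20 for Sugct (12 pairs each, at most 0.65). For comparison with the genome, MEFs minus ESCs was past the threshold of the fit (limma, Benjamini-Hochberg adjusted p under 0.05 and a difference of at least 1) and higher in 23 of the 24 windows, against 30.3% of all autosomal windows. The same held for 21 of 24 in MEFs minus NPCs (25.7% of all windows). In NPCs minus ESCs 6 windows were higher (16.4% of all), all of Gli3, and 2 were lower (16.1%), both of Sugct. These contrasts most likely chose the genes, and nothing is read from the counts.

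The later-copying windows of ESCs that were earlier in MEFs formed 1 run of 59 windows (chr13:14650001-17650000, 3000.0 kb), with a mean difference of 3.38 and the largest, 5.02, between Inhba and Sugct (chr13:16250001-16300000). NPCs minus ESCs was higher over chr13:14800001-15950000 (mean 2.15), which takes in Gli3. It stops before Inhba, where the difference was 0.70. Both runs were joined from windows past the threshold of the fit, so their ends depend on that threshold and are a description only. Inside the run of 59 windows MEFs had 2 peaks of early copying that NPCs lacked at such levels. They were the one beyond Gli3 and one before Sugct (chr13:16650001-16700000, mean 1.96).

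**Figure D2:**
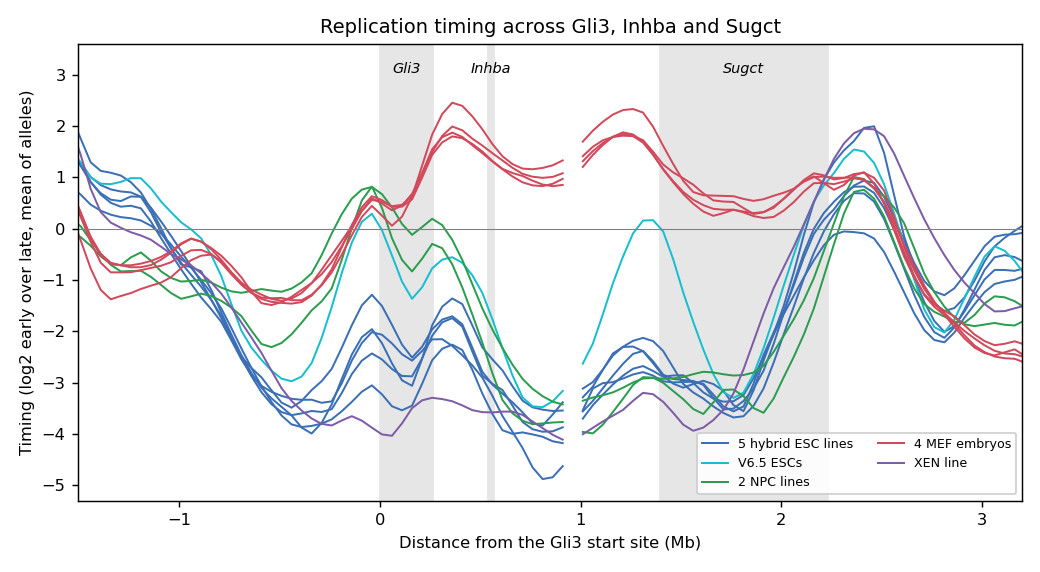
Timing of each 50 kb window (y axis, log2 of early over late, mean of both alleles) against the distance from the Gli3 start site in Mb (x axis), with 1 curve for every cell line and every embryo and grey bars over the gene bodies. The 4 MEF embryos run above 0 from Gli3 to beyond Sugct, NPCs leave them after Gli3, and V6.5 has separate peaks before Gli3 and before Sugct; the break in the lines is a missing window.

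Domain borders were taken on each allele's column as the ends of the unbroken run of windows through the middle of the 3 genes that stayed on 1 side of that column's autosomal median. In MEFs the middle was earlier than the median from 15.43 ± 0.04 to 18.04 ± 0.01 Mb (n = 4 embryos), a domain of 2.61 ± 0.04 Mb that starts near the Gli3 promoter and ends beyond Sugct. In ESCs it was later than the median from 14.65 ± 0.25 to 17.65 ± 0.19 Mb (n = 5 lines), which ends inside Sugct or near its promoter. In NPCs the late run was 1.83 ± 0.08 Mb long, from 15.84 ± 0.04 to 17.68 ± 0.04 Mb (n = 2), and so left out Gli3 at this threshold. In XEN cells it ran from 14.2 to 17.55 Mb (3.35 Mb), within the range of the ESC lines in length, and in V6.5 from 15.85 to 16.65 Mb (0.80 Mb). The V6.5 run was 1.275 Mb long when cut at 0 in place of the median. Inhba was inside the late run in all cell types but MEFs.

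Within MEFs the left border differed between the alleles at the median. The 129 allele had it between 15.25 and 15.30 Mb in all 8 columns, before Gli3, and the Cas allele between 15.35 and 15.65 Mb, inside Gli3 in 7 of 8 columns. By embryo it lay at 15.30 and 15.60 Mb (129 and Cas) in embryos 1, 3 and 4 and at 15.28 and 15.48 Mb in embryo 2. Cut midway between the genes and the flank in place of the median, the alleles were closer in part of the columns. The Cas border was then at 15.30 and 15.35 Mb in embryo 1 and at 15.35 Mb in embryo 2. It was at 15.65 and 15.35 Mb in embryo 3 and at 15.60 Mb in embryo 4, against 15.25 to 15.35 Mb on the 129 allele. At the median the right border was the same to within 50 kb, between 18.00 and 18.05 Mb on both alleles. In ESCs the right border was at 17.53 Mb on the 129 allele and 17.72 Mb on the Cas allele (means of 13 columns), the latter with 1 Cas129 column at 19.2 Mb. The late run of ESCs began further right, at 15.45 Mb or beyond, in 4 columns. In F123 the 129 allele stood above the median in the window of the Gli3 promoter or the one before it in both profiles (-0.343 and -0.509 against medians of -0.674 and -0.651), and in F121-6 on feeders the Cas allele did so beyond the Gli3 3′ end (-0.262 and -0.584 against -0.741 and -0.617).

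**Figure D3:**
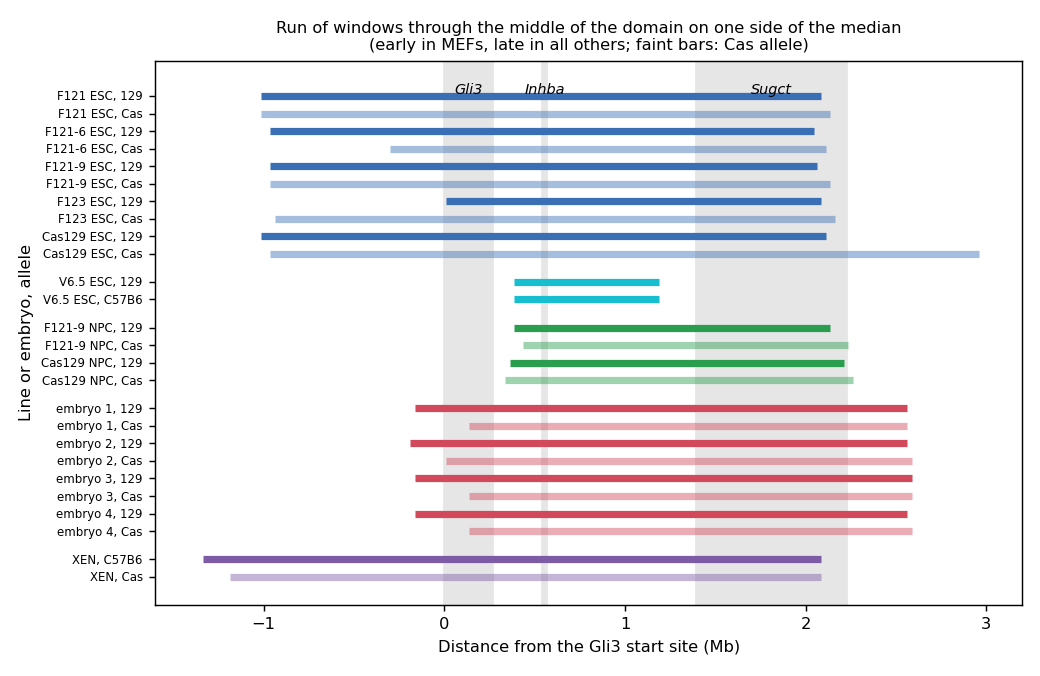
Runs of windows on 1 side of the column's autosomal median through the middle of the domain, by line or embryo and allele (y axis) against the distance from the Gli3 start site in Mb (x axis), as means over profiles, with faint bars for the Cas allele. The runs are early in MEFs and late elsewhere; in each embryo the Cas bar starts further to the right than the 129 bar, and the V6.5 run is 0.80 Mb long.

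The alleles of Gli3 differed in ESCs and MEFs, with the 129 allele copied earlier. A gene was called where the adjusted p was under 0.05 and the mean difference over its windows at least 0.5, with the 129 allele earlier in 9.22% of all genes in ESCs, 2.14% in NPCs and 4.68% in MEFs. The change of the difference from ESCs to MEFs was called higher in 9.45% and lower in 9.75% of all genes. These tests by gene were added after the windows were seen. In ESC lines 129 minus Cas over the gene was lowest in F121-9 (0.31) and highest in F123 (1.45), with a mean of 0.77 ± 0.13 (SE; adjusted p = 3.17e-04, limma over 18573 autosomal genes). All 5 lines were above 0, among them Cas129, which has the opposite cross direction, with -2.97 on the 129 and -3.45 on the Cas allele. Of 13 ESC profiles, 11 were above 0. The F121-9 mean joins its 2i profiles (0.90 and 0.96) with its feeder profiles (-0.55 and -0.08). In MEFs the 129 allele was at 1.18, 1.18, 1.20 and 1.16 and the Cas allele at 0.29, 0.39, 0.32 and 0.26 in embryos 1 to 4, with no overlap, and the difference was 0.86 ± 0.14 (SE; adjusted p = 9.23e-04, limma). Without embryos 1 and 3 the MEF difference was 0.85 with an adjusted p of 0.0557 (limma). In NPCs it was 0.32 in F121-9 and 0.37 in Cas129, a mean of 0.35 ± 0.20 (SE) that did not pass (adjusted p = 0.449, limma). At the window of the Gli3 promoter the 129 allele led by 0.73 to 1.71 in the ESC lines and 0.64 to 0.85 in the embryos, and by 0.11 and 0.21 in the NPC lines.

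Inhba differed between its alleles in MEFs, where the 129 allele was at 1.72, 1.71, 1.79 and 1.99 and the Cas allele at 0.92, 0.91, 1.15 and 1.31. The difference was 0.73 ± 0.15 (SE; adjusted p = 0.00326, limma), and it was above 0 in 8 of 8 profiles. In ESCs the mean was 0.03 ± 0.13 (SE; adjusted p = 0.893, limma), the lines ran from -0.48 (F121-9) to 0.54 (F121), and 6 of 13 profiles were above 0. The difference between these, MEFs minus ESCs, was 0.70 ± 0.19 (SE; adjusted p = 0.0182, limma), and without embryos 1 and 3 it was 0.71 with an adjusted p of 0.112. Without them the MEF difference itself was 0.74 (adjusted p = 0.0907, limma), and without embryo 1 alone MEFs minus ESCs was 0.67 (adjusted p = 0.0512, limma). In NPCs it was 0.22 (adjusted p = 0.667, limma).

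Sugct showed the 129 allele earlier in ESCs, at 0.53 ± 0.09 (SE; adjusted p = 2.91e-04, limma), with F121-6 at 0.23 and the other lines from 0.56 to 0.68. In 12 of 13 ESC profiles it was above 0. The mean came to just under the size of 0.5 without F121-9 (0.49, adjusted p = 0.00243, limma), with columns centred on their median (0.47) and with a replicate block (0.499). In MEFs the alleles were 0.08 ± 0.10 (SE) apart (adjusted p = 0.661, limma), and in NPCs 0.23 (adjusted p = 0.475). MEFs minus ESCs was -0.45 ± 0.13 (SE; adjusted p = 0.0233, limma), which is under the size of 0.5 set for a call. At the window of the Sugct promoter the lead of the 129 allele was 0.88 in ESCs (0.72 to 1.00 over the 5 lines), 0.75 in NPCs (0.58 and 0.92) and 0.15 in MEFs (at most 0.24). The neighbours beyond it went the same way in ESCs: the difference was 0.91 ± 0.09 (SE) over Cdk13 and 1.03 ± 0.10 over Rala, a small GTPase gene, against 0.27 and 0.29 in MEFs, where neither passed.

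Window by window, in ESCs 15 of the 24 windows passed with the 129 allele earlier (adjusted p under 0.05 and at least 0.5), 5 of Gli3 and 10 of Sugct, and none the other way, where 13.2% of all autosomal windows passed in that direction and 25.2% in either. In MEFs 7 passed, the 6 of Gli3 and that of Inhba (5.50% of all windows in that direction), and none of Sugct's 17, of which 4 had an unadjusted p under 0.05. Without embryos 1 and 3 it was 2. In NPCs 4 windows of Sugct passed (2.47% in that direction) and none of Gli3, with 1 of its 6 at an unadjusted p under 0.05. None of the 4 passed with a replicate block, with the line as a random block or without F121-9 NPCs. The test of MEFs minus ESCs passed in 9 windows (27.4% of all windows in either direction), higher at Inhba and lower in 8 of Sugct. NPCs minus ESCs passed in 3 windows (16.1% of all in either direction), lower in 2 of Gli3 and higher in 1 of Sugct, although both NPC lines are also among the ESC lines and were fitted unpaired. The count was 1 with a replicate block or the line as a random block, 0 without F121-9 NPCs and 7 with ESC profiles in 2i alone. Neighbouring windows are not independent, since values of next windows over the genes differed by a median of only 0.216.

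Across the domain the sign of the allelic difference changed along the chromosome in ESCs. The 129 allele was earlier over chr13:15050001-15700000 (mean 0.92), which holds most of Gli3, the Cas allele was earlier over 4 windows between Inhba and Sugct (chr13:16550001-16750000, mean -0.87, largest -1.10 ± 0.13 SE, adjusted p = 1.69e-05, limma), and the 129 allele was again earlier from chr13:17250001 in Sugct onwards. In MEFs the 129 allele was earlier in 1 stretch of 800.0 kb (chr13:15350001-16150000, mean 0.75, largest 0.99 ± 0.17 SE), which takes in Gli3 and Inhba. In the 4 windows between Inhba and Sugct, MEFs minus ESCs of the allelic difference was 0.82 on average, and NPCs minus ESCs was 1.04 over chr13:16500001-16900000. These stretches were joined from windows that had passed.

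**Figure D4:**
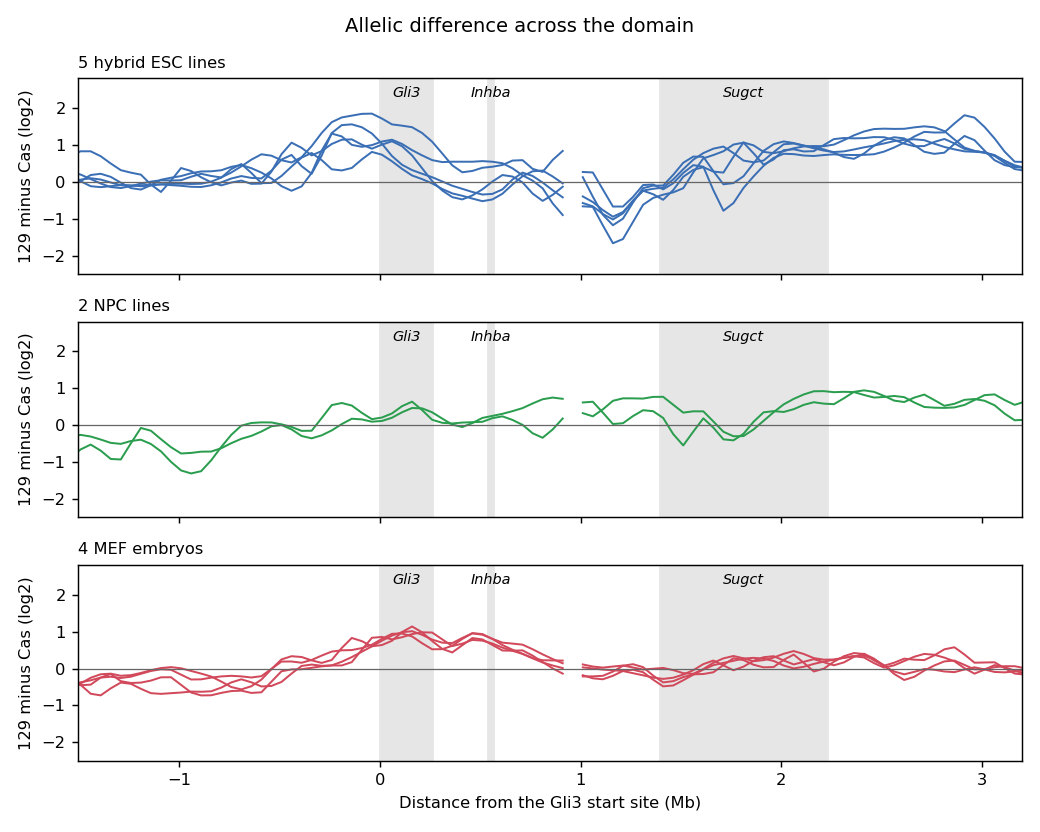
Difference between the alleles in each 50 kb window (y axis, 129 minus Cas, log2) against the distance from the Gli3 start site in Mb (x axis), for ESC lines, NPC lines and MEF embryos, 1 line each, with grey bars over the gene bodies. All 4 embryos rise above 0 over Gli3 and Inhba and return to it before Sugct, while ESC lines are above 0 at Gli3, below 0 before Sugct and above 0 again from its 5′ part onwards.

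Other crosses were described only. In V6.5, 129 minus C57B6 was 0.09 for Gli3, -0.05 for Inhba and -0.04 for Sugct, in 1 profile. Its X chromosome went against the labelled sex, and how well its alleles were separated was not tested. In XEN cells C57B6 minus Cas was 0.84 and 0.28 for Gli3 in the 2 profiles, 0.34 and 0.48 for Inhba, and -0.35 and -0.30 for Sugct.

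V6.5 stood apart from the 5 hybrid ESC lines in this domain. All 6 windows of Gli3, that of Inhba and 4 of Sugct, 11 of 24, were at least 1 above the mean of the 5 lines (9.09% of all autosomal windows were), 4 were at least 2 above it (1.18%), and 0 were at least 1 below. The largest lead was just before the Sugct 3′ end (chr13:16800001-16850000), where V6.5 was at 0.17 with 0.15 on the 129 and 0.18 on the C57B6 allele. There the other lines had -2.86 (F121), -2.62 (F121-6), -2.58 (F121-9), -2.19 (F123) and -2.77 (Cas129). A second lead of 2.45 lay before the Gli3 start (chr13:15350001-15400000), where V6.5 was at 0.14 and the highest other line, F123, at -1.49. V6.5 is 1 line with 1 profile, labelled male although its X chromosome went against that label. Its strains and its labelled sex differ from those of most of the others at once, and no test was made.

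Culture on feeders or in 2i was compared in F121-6 and F121-9, with 2 profiles each. For timing 2 of the 24 windows passed (limma on 8 profiles with line as a term; adjusted p under 0.05 and at least 0.5), both in Sugct (chr13:17450001-17550000, 0.78 earlier on feeders on average), where 4.92% of all windows passed in that direction and 12.8% in either. The count was 0 on leaving out any 1 of 5 of the 8 profiles or the line term, and 1 with a replicate block. None of the 3 genes passed as a whole. Sugct was at -1.723 and -2.001 on feeders and -2.577 and -2.382 in 2i in F121-6, and at -2.394 and -2.167 on feeders and -2.205 and -2.505 in 2i in F121-9. The 2 lines thus differed, with no overlap of media in F121-6 and overlap in F121-9.

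The allelic difference of Gli3 was lower on feeders in both lines. In 2i it was 1.00 and 0.89 in F121-6 and 0.90 and 0.96 in F121-9, and on feeders 0.16 and 0.73 in F121-6 and -0.55 and -0.08 in F121-9, so that the media did not overlap. Feeders minus 2i was -0.87 ± 0.26 (SE; limma, unadjusted p = 0.00654), and it did not pass after adjustment over all genes (adjusted p = 0.323). This test was added after the values were seen. It passed in none of the 24 windows, of which 10 had an unadjusted p under 0.05, and in none of all 43941 windows (0.00%), of which 5104 did. With ESC profiles in 2i alone, the Gli3 difference between alleles was 0.94 (adjusted p = 1.69e-05, limma). For Inhba the feeder profiles ran from -1.42 to 1.19 and the 2i profiles from -0.32 to 0.33, and for Sugct from -0.19 to 0.82 and from 0.44 to 0.65, both with overlap.

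Genes around the domain did not share its change from late in ESCs to early in MEFs. To the left, Hecw1, a ubiquitin ligase gene, was at -0.07 in ESCs, -0.93 in NPCs and -0.68 in MEFs, and Mrpl32, Psma2 and AW209491, which share 1 window, at -1.35, -1.18 and -0.44. The genes further left, B3galnt2, Tbce, Ggps1 and Arid4b, ran from 0.66 to 1.24 in ESCs and from -0.83 to 0.16 in MEFs. To the right, Rala was at 0.83, 0.77 and 0.94 and Yae1d1 at 0.45, 0.44 and 0.57 in ESCs, NPCs and MEFs. Both lie inside the early run of MEFs, but their means were above 0 in ESCs as well. Vps41 and Amph, the furthest of those within 1.5 Mb, were later in MEFs (-2.60 and -2.40) than in ESCs (-0.20 and -0.24). Of the 18483 genes more than 5 Mb away or on other autosomes, those with the timing closest to the mean of the 3 over the 13 lines and embryos (root mean square difference) were Slc17a6 on chromosome 7 (0.499), Snx13 (0.504) and Prps1l1 (0.550) next to each other on chromosome 12, Slc27a6 on chromosome 18 (0.553) and Nbea on chromosome 3 (0.558). Their Pearson correlations with it were 0.958 to 0.981, over lines and embryos that share batches of scaling.

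Of the 24 other Hedgehog genes measured, 5 were earlier in MEFs than in ESCs and 2 later (limma; adjusted p under 0.05 and at least 1; 20.5% and 13.5% of all genes), with a median difference of 0.49 against 0.41 over all genes. The co-receptor gene Gas1 (3.14 ± 0.23, SE) and Disp1, which serves ligand release (2.42 ± 0.18), rose most, and the ligand gene Shh (-2.58 ± 0.22) and the ciliary gene Evc (-1.37 ± 0.16) fell. In NPCs minus ESCs 4 of 24 were earlier (7.73% of all genes), led by Gas1 (2.37 ± 0.29) and Hhat, which acylates Hedgehog ligands (1.73 ± 0.22), and none later, against 15.8% of all genes. Gli1 was at 2.97, 3.26, 3.80 and 2.78 and Gli2 at 2.71, 1.79, 2.09 and 0.69 in ESCs, NPCs, MEFs and XEN cells, all above 0.

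Of the 16 other activin genes measured, 2 were earlier in MEFs than in ESCs, the co-receptor gene Tgfbr3 (3.11 ± 0.19, SE) and the transducer gene Smad3 (1.44 ± 0.12), and 1 later, the pseudoreceptor gene Bambi (-2.06 ± 0.21), with a list median of 0.64, where 20.5% and 13.5% of all genes did and the median of all was 0.41. In NPCs minus ESCs 1 of the 16 rose, Tgfbr3 (2.52 ± 0.23), where 7.73% of all genes did. Bambi (-2.36 ± 0.26) and Inhbb, the activin beta B subunit gene (-1.15 ± 0.21), fell, where 15.8% of all genes did. In MEFs minus NPCs 2 rose, Fst, which binds activin (1.49 ± 0.24), and the receptor gene Acvr1c (1.30 ± 0.20), where 17.6% of all genes did. Of the 9 other genes of lysine and glutarate breakdown 2 rose in MEFs minus ESCs, among them Aadat (1.13 ± 0.12), where 20.5% of all genes did, with a list median of 0.54 against 0.41 over all genes. Between alleles in ESCs 5 of the 24 Hedgehog genes passed (17.1% of all genes in either direction, 7.89% with the Cas allele earlier), among them Hhip (1.05) and Hhat (0.76), earlier on the 129 allele, and Cdon (-1.37) and Gpr161, earlier on the Cas allele. On feeders against 2i, 2 Hedgehog and 4 activin genes were later (5.51% of all genes), by the most in Disp1 (-1.25 ± 0.23) and the transducer gene Smad4 (-1.25 ± 0.19).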

How the data were processed

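The deposited table holds, per the file headers, log2 ratios of early over late reads made by the authors for each allele in 50 kb windows on mm10. The headers leave the log base unstated, and base 2 is assumed here. Bowtie2, SAMtools and bedtools are named in the submitters' processing notes, and versions, allele assignment and smoothing are not given in the sources used here. The table has no counts, so depth is unknown. None of its value columns was left unused (54 used, 0 unused).

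Timing (mean of both alleles) and allelic difference (129 minus Cas) were averaged by line or embryo and fitted with limma 3.58.1 in R 4.3.3 over 5 ESC lines, 2 NPC lines and 4 MEF embryos, two-sided, with Benjamini-Hochberg adjustment over all 43941 autosomal windows or over the window means of 18573 protein-coding genes. F121-9 and Cas129 are in both ESCs and NPCs, unpaired. V6.5 and XEN cells were not fitted. The tests were tried on simulated data. Replicate numbers did not pair profiles: deviations of like numbers correlated between -0.07 and 0.04 (allelic) and -0.40 and 0.30 (timing).

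The genes and lists were chosen with earlier results of these data known. Genes named are the 3 genes, protein-coding genes within 1.5 Mb, the 5 closest in timing, and, of each list and direction, up to 2 of largest size; Gli1, Gli2 and the markers were named apart from this rule, and some genes that it takes are not reported here. Alternatives were 2 other scalings, other sizes, leaving out lines or profiles, blocks, other media and other border thresholds. Sequences are from RefSeq (GRCm38.p6), in which all 3 genes were matched.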

Additional observations from a re-analysis of the deposited data

Results flagged for a closer look

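The allelic difference of Sugct in F121-6 ESCs, 0.23, lay far below those of the other 4 lines (0.56 to 0.68). F121-6 was also the line whose feeder profiles had -0.19 and 0.06, against 0.44 and 0.63 in 2i. At the window of the Sugct 3′ end F123 ESCs, at -2.38, lay above the other lines (-2.97 to -2.84). Of 36 groups looked at in this way, chance alone gives about 1 in 20. The allelic difference of Inhba was larger in MEFs than in ESCs by 0.70 in the test of that difference itself, and all MEFs were of 1 cross direction. The parts of line, sex and medium in these values were not tested.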

How the results depend on the processing

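Counts below are of windows called among the 24. With 2 times the minimum size, the counts were 2 for ESC alleles and 0 for NPC and MEF alleles, MEF minus ESC and NPC minus ESC alleles and feeders; with no minimum size, NPC minus ESC timing had 14 in place of 8. In NPCs (4) the count was 2 without embryos 1 and 3, 0 with a replicate block or the line as a random block, and 0 to 4 on leaving out 1 line or embryo (0 without F121-9 NPCs, 2 without Cas129 NPCs). NPC minus ESC alleles (3) had 1 without embryos 1 and 3, 7 with 2i profiles, 1 with a replicate block, 1 with the random block, and 0 to 5 on leaving out 1 (0 without F121-9 NPCs, 1 without Cas129 NPCs, 5 without F121-6 ESCs). MEF alleles (7) had 2 without embryos 1 and 3. The feeder count (2) was 1 with a replicate block, 0 without the line term and 0 to 3 on leaving out 1 profile (0 without any of 5 of the 8). With the replicate block the Sugct ESC difference was 0.50, just under the minimum size; with median centring it was 0.47. Without F121-6 ESCs, Sugct MEF minus ESC alleles passed (-0.52). Cut at 0, the left border was at 14.36 Mb in ESCs and 15.64 Mb in NPCs and the NPC right border at 17.98 Mb. Cut midway between the genes and the flank, the right border was at 17.32 Mb in ESCs, the NPC borders at 15.91 and 17.61 Mb and the MEF borders at 15.37 and 18.10 Mb. The V6.5 late run was 1.275 Mb long cut at 0 and 0.60 Mb cut midway (0.80 Mb), and the ESC run 3.455 and 2.589 Mb (3.003 Mb). On means of both alleles the MEF borders were at 15.33 and 18.05 Mb. Apart from the gene calls that the report gives without a line or embryos, and timing calls of Inhba (NPC minus ESC, 1.13 without Cas129 NPCs) and Gli3 (MEF minus NPC, 1.096 without F121-9 NPCs), no other count of windows or gene call changed its side or moved by over 1.5 times under these alternatives. The number of lines limits precision, most of all the 2 NPC lines.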
